A study of Mus musculus with 15 samples.

Results

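Conventional dendritic cells of type 2 (cDC2) were compared with those of type 1 (cDC1) in the thymus of wild-type (WT) mice, across every gene of the deposited count table. The members were 2 cDC2 WT and 2 cDC1 WT libraries, taken by their labels from 15 libraries in the series. Of 22165 genes counted, 11746 passed a filter on low counts and were tested. The comparison asks which genes separate the 2 conventional subsets where the kinase LKB1 is intact.

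Conventional dendritic cells take up antigen and present it to T cells, and in the thymus they take part in deleting self-reactive thymocytes and in forming regulatory T cells. cDC1 depend on the transcription factors IRF8 and BATF3, take up dead cells and present their antigens on MHC class I. cDC2 are more diverse, use IRF4, KLF4, ZEB2 and Notch signals, carry many C-type lectins and other inhibitory or activating receptors, and include cells that reach the thymus from the blood.

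The cDC2 WT and cDC1 WT libraries came from C57BL/6 mice with no deletion. The KO libraries (3 cDC2, 2 cDC1) came from Itgax-cre Stk11 fl/fl mice on the same background, in which the promoter of Itgax (CD11c) drives Cre and so deletes Stk11, the gene of LKB1, in cells that express CD11c. All groups held male and female mice, 8 to 12 weeks old at a flank injection of B16 melanoma cells that secrete Flt3L, the growth factor that expands dendritic cells, and thymi were taken 9 to 12 days later. Every value is therefore from Flt3L-expanded cells of tumour-bearing mice. Cells were enriched on CD11c beads and sorted for CD11c and MHC class II together with CD11b for cDC2 and CD8a for cDC1. The 3 pDC WT libraries, quoted for comparison, were sorted for Siglec-H and intermediate CD11c. The labels do not say whether replicates came from separate mice, so p-values measure the spread between libraries, which may be technical.

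Total counts were 3928164 and 6705249 in cDC2 WT, against 4105082 and 5249274 in cDC1 WT. Levels are given as CPM, the counts scaled to the TMM-adjusted size of each library, and compare samples, not genes. The libraries also differed in make-up by subset. At an equal depth of 3928164 counts, 10840 and 11349 genes were detected in cDC2 WT, against 12587 and 12657 in cDC1 WT, while the 5 KO libraries of both subsets detected 12433 to 12736. Ribosomal protein genes took 4.11% and 3.9% of counts in cDC2 WT, against 6.65% and 6.99% in cDC1 WT. In cDC2 WT, higher levels went with longer transcripts (Spearman's rho across genes of transcript length with the level relative to the mean of all libraries 0.182 and 0.158), and in cDC1 WT with shorter ones (rho -0.224 and -0.141). These features run with the subset, so a difference in make-up between the libraries and a difference between the cells cannot be told apart in WT alone. Stk11 itself had 36.1, 28.2 and 29.2 CPM in cDC2 KO, against 30.6 and 18.4 CPM in cDC1 KO, and 34.2 and 34.9 CPM in cDC2 WT, against 35.6 and 54.2 CPM in cDC1 WT. The deleted exons are not given in the labels and reads from the rest of the gene would still be counted, so these counts do not check the KO labels. Values fitted with offsets set in each library by transcript length and GC content and the KO values are therefore given beside results that move with them.

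The sort markers matched the labels. Itgam, which encodes CD11b, had 105 and 102 CPM in cDC2 WT, against 1.88 and 0.364 CPM in cDC1 WT, and Cd8a had 9.71 and 18.1 CPM in cDC2 WT, against 259 and 249.6 CPM in cDC1 WT. Both proteins were used in the sort, so these values are a check and not a finding. Itgam overlaps an unnamed gene model on the same strand, so part of its reads could belong to that model. The other 2 subset genes fixed as markers were not sorted on. Sirpa, a receptor for CD47 carried by cDC2, had 76.2 and 106 CPM in cDC2 WT, against 5.39 and 7.46 CPM in cDC1 WT, and Cd207, which encodes the lectin langerin, had 0 and 0 CPM in cDC2 WT, against 72.9 and 36.0 CPM in cDC1 WT. No cDC2 library overlapped a cDC1 library for any of these 4 genes. In the 5 KO libraries Sirpa had 155, 218 and 151 CPM in cDC2 KO, against 13.5 and 14.1 CPM in cDC1 KO, and Cd207 had 0.428, 1.12 and 0.436 CPM in cDC2 KO, against 8.63 and 9.19 CPM in cDC1 KO, so the order of the subsets was the same there, and cDC2 KO were not at 0 for Cd207.

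Among the 11746 tested genes, 1025 passed an adjusted p of 0.05 by edgeR's quasi-likelihood test (8.73%), 440 of them higher in cDC2 (3.75%) and 585 lower (4.98%). For each of these 1025 genes both cDC2 libraries lay on the same side of both cDC1 libraries, while over all tested genes 22.3% lay wholly above and 30.5% wholly below. With RLE scaling in place of TMM the larger count was on the other side, 548 higher and 500 lower. Genes with the smallest p among those higher in cDC2 included Cd300lf, Itgam, Sirpa, Cdh1, Klrd1, Zeb2, Ms4a4c, Ifi206, Cybb, Rin2, Bex6, Ifit1, Pltp and Tbc1d16. Among those lower in cDC2 they were Cd8a, Serpinf1, Rpl10-ps3, Tubb2b, Txndc15, Psap, Pdlim2, Cd207, Rpl11, Cxcr3, Cyb5a, Cst3, Rps28, Mospd1 and Sh3bp1. All of these calls held with any 1 of the 4 WT libraries left out. The same was true of 49 of the 440 higher and 96 of the 585 lower genes. Leaving out 1 library leaves its group with 1, whose spread is then taken from the other groups. Fewer genes were then called, 98 higher and 159 lower without cDC1 WT 1, 145 and 197 without cDC1 WT 2, and 232 and 367 without cDC2 WT 2. Rpl10-ps3 is a processed copy of a ribosomal protein gene, and its reads could belong to the parent gene.

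**Figure D1:**
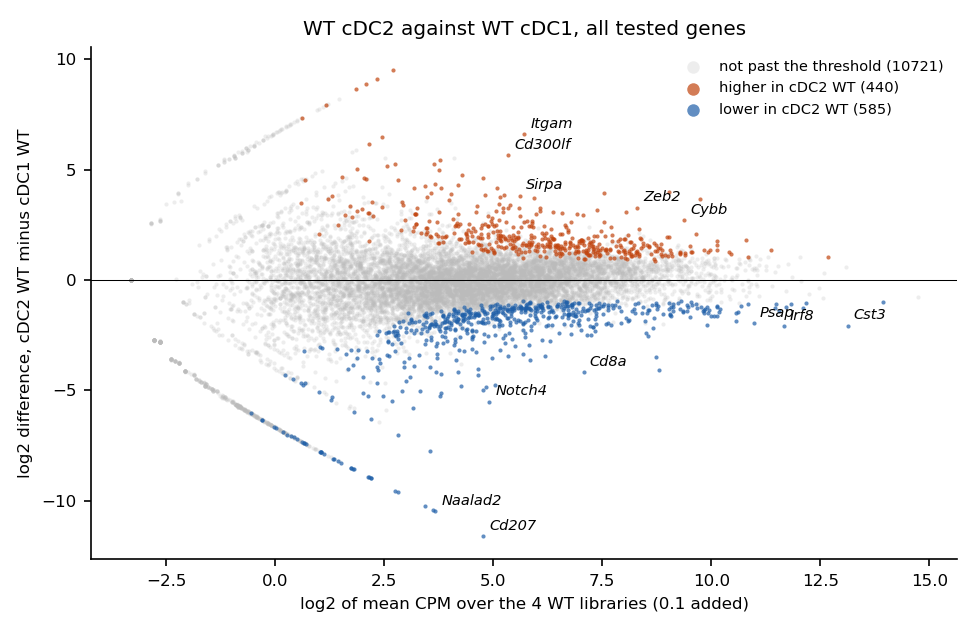
Each point is 1 of the 11746 tested genes, with the log2 of its mean CPM over the 4 WT libraries (0.1 added) on the x axis and the fitted log2 difference, cDC2 WT minus cDC1 WT, on the y axis. Genes past the adjusted p of 0.05 are coloured (440 higher, 585 lower). The straight outer lines of points are genes with no count in one subset, whose fitted difference is not a measured fold.

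Many receptors of the cDC2 surface were higher in cDC2. Here and for each list that follows, the share called is read against the 8.73% called over all tested genes. Shares called between the KO subsets are read against 1.27%, and those with the offsets against 5.89%. Of 29 tested members of a list of cDC2 surface genes, 17 were higher in cDC2, 0 lower and 12 did not pass, with a median log2 difference of 2.39 against -0.05 over all tested genes. The count of higher members was 16 and 11 with cDC2 WT 1 or cDC2 WT 2 left out, and 11 and 8 with cDC1 WT 1 or cDC1 WT 2 left out. Cd300lf, an inhibitory receptor of the CD300 family that binds phospholipids, had 93.5 and 64.6 CPM in cDC2 WT, against 1.88 and 1.27 CPM in cDC1 WT. This is a 50.3-fold difference (log2 difference 5.65 ± 0.48 (SE), adjusted p = 7.81e-06), and every cDC2 library was far above both cDC1 libraries. Clec4a3, a C-type lectin receptor, had 31.6 and 21.5 CPM in cDC2 WT, against 0.235 and 0.910 CPM in cDC1 WT (log2 difference 5.42 ± 0.97 (SE), adjusted p = 0.00379), so its cDC1 level was close to the limit of counting. Cd33, a sialic acid-binding inhibitory receptor, had 70.9 and 100.3 CPM in cDC2 WT, against 16.2 and 7.28 CPM in cDC1 WT (log2 difference 2.88 ± 0.50 (SE), adjusted p = 0.00322). Cd209a, a homologue of the human lectin DC-SIGN, had 125 and 142 CPM in cDC2 WT, against 31.9 and 22 CPM in cDC1 WT (log2 difference 2.31 ± 0.48 (SE), adjusted p = 0.00838). Csf1r, the receptor for the macrophage growth factor CSF1, had 76.0 and 58.4 CPM in cDC2 WT, against 15 and 6.55 CPM in cDC1 WT (log2 difference 2.65 ± 0.56 (SE), adjusted p = 0.00897).

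The galactose-binding lectins Clec10a and Mgl2 were among the 17, with log2 differences of 2.72 ± 0.51 and 2.61 ± 0.62 (SE). Cd4, which part of the cDC2 population carries, was low in all libraries, with 11.7 and 29.1 CPM in cDC2 WT, against 5.39 and 7.46 CPM in cDC1 WT (log2 difference 1.67 ± 0.41 (SE), adjusted p = 0.0173). In KO mice Cd4 had 5.14, 3.35 and 5.23 CPM in cDC2 KO, against 5.10 and 5.10 CPM in cDC1 KO, with no called difference (log2 difference -0.17, adjusted p = 1). Cd72, an inhibitory receptor known from B cells, had 13.1 and 31.8 CPM in cDC2 WT, against 5.86 and 5.83 CPM in cDC1 WT (log2 difference 1.95 ± 0.43 (SE), adjusted p = 0.011). Some genes on the cDC2 list did not pass. Esam, an adhesion molecule of splenic cDC2, had 0.243 and 1.51 CPM in cDC2 WT, against 2.58 and 0.364 CPM in cDC1 WT. Pirb, a paired immunoglobulin-like inhibitory receptor, had 56.6 and 43.8 CPM in cDC2 WT, against 55.8 and 78.1 CPM in cDC1 WT, with overlapping groups. Clec12a, an inhibitory lectin for uric acid crystals, had 169 and 83.9 CPM in cDC2 WT, against 294 and 242 CPM in cDC1 WT (adjusted p = 0.0628), so both cDC2 libraries lay below both cDC1 libraries.

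Of the 6 calls beyond those of Cd300lf, Clec4a3 and Cd33, each ended with some library left out. Calls lost were those of Clec10a, Mgl2, Cd4 and Cd72 without cDC2 WT 2 (adjusted p 0.0551 to 0.227), those of Cd4 and Cd72 without cDC1 WT 1 (adjusted p 0.0851 to 0.143), and those of Cd209a, Csf1r, Clec10a, Mgl2, Cd4 and Cd72 without cDC1 WT 2 (adjusted p 0.0521 to 0.138).

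**Figure D2:**
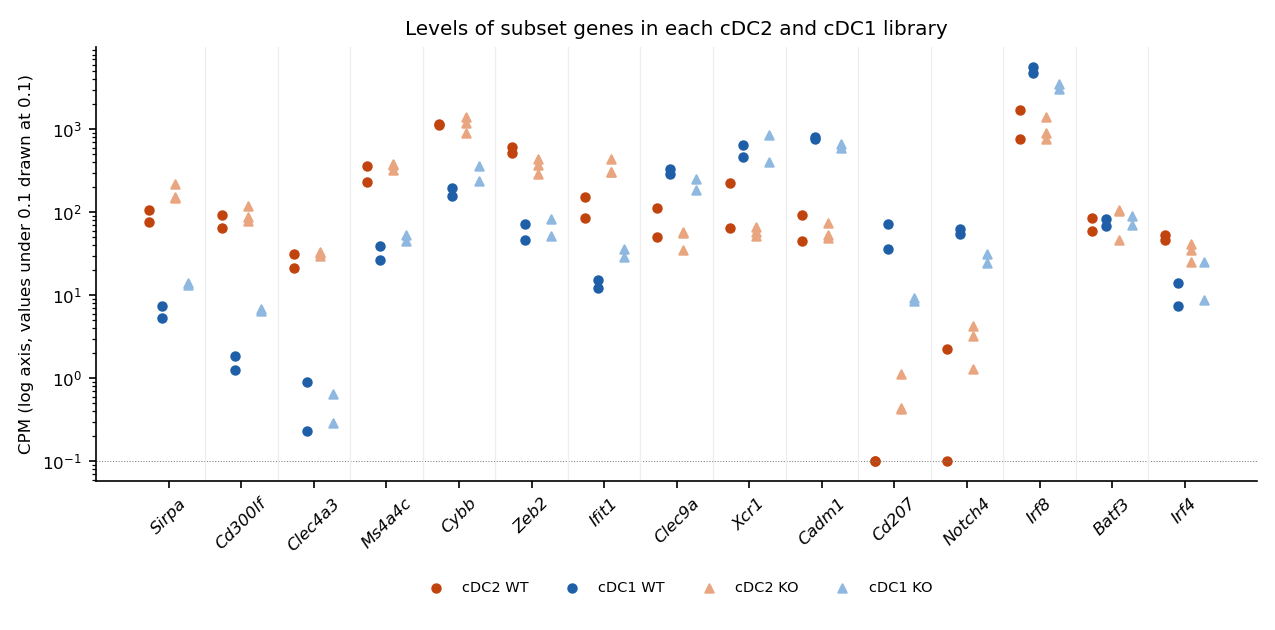
Each point is 1 library, with its CPM on a log axis, for 15 genes of the cDC2 and cDC1 lists and of the interferon list. Circles are WT, triangles KO, and values under 0.1 CPM are drawn at the dotted line. Sirpa, Cd300lf, Clec4a3, Ms4a4c, Cybb, Zeb2 and Ifit1 sit higher in cDC2 of both genotypes, Clec9a, Xcr1, Cadm1, Cd207, Notch4 and Irf8 sit lower, Irf4 sits higher in cDC2 WT without a call, and Batf3 overlaps between subsets.

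Several of these receptors belong to families whose genes lie side by side in the genome. The families were picked after the values had been seen, so their counts describe and do not test. In the CD300 family on chromosome 11, 8 of 12 genes were tested and 3 were higher in cDC2: Cd300lf, Cd300a with 80.9 and 66.0 CPM in cDC2 WT, against 16.2 and 11.8 CPM in cDC1 WT (log2 difference 2.39 ± 0.45 (SE), adjusted p = 0.00456), and Cd300ld with 6.07 and 19.4 CPM in cDC2 WT, against 0 and 0 CPM in cDC1 WT. No read of Cd300ld was counted in cDC1 WT, so its level was at least 46.6-fold higher in cDC2 against a floor of 3 counts over the cDC1 group. Cd300c2 went without a call, with 12.6 and 13.1 CPM in cDC2 WT, against 20.9 and 18.4 CPM in cDC1 WT. In the MS4A family of membrane-spanning proteins on chromosome 19, 10 of 19 genes were tested and 4 were higher, Ms4a4c, Ms4a6b, Ms4a6c and Ms4a6d. Ms4a4c had 234 and 364 CPM in cDC2 WT, against 26.5 and 39.0 CPM in cDC1 WT (log2 difference 3.19 ± 0.35 (SE), adjusted p = 6.67e-05). Ms4a6c had 952 and 709.6 CPM in cDC2 WT, against 220.4 and 212 CPM in cDC1 WT (log2 difference 1.94 ± 0.30 (SE), adjusted p = 0.00132). Ms4a1, which encodes CD20 of B cells, had 6.31 and 4.37 CPM in cDC2 WT, against 2.81 and 8.56 CPM in cDC1 WT, with overlapping groups.

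Among the 9 tested CLEC4 genes, 8 of them on chromosome 6, Clec4a1, Clec4a2, Clec4a3 and Clec4n were higher in cDC2. Clec4b2, in the same stretch of the chromosome, pointed the other way without passing the test, with 0.243 and 0 CPM in cDC2 WT, against 8.21 and 12.0 CPM in cDC1 WT (adjusted p = 0.0918). All 4 calls of the MS4A family and 3 of 4 of the CLEC4 family were also made between cDC2 KO and cDC1 KO. Reads of such neighbouring copies can be hard to assign, and how shared reads were counted is not given. Lost with 1 library left out were that of Clec4n without cDC2 WT 1 (adjusted p = 0.0923), those of Cd300ld, Ms4a6d, Clec4a2 and Clec4n without cDC2 WT 2 (adjusted p 0.0532 to 0.0692), those of Cd300ld, Ms4a6b, Ms4a6d, Clec4a1, Clec4a2 and Clec4n without cDC1 WT 1 (adjusted p 0.0606 to 0.231), and those of Cd300a, Cd300ld, Ms4a6b, Ms4a6d, Clec4a2 and Clec4n without cDC1 WT 2 (adjusted p 0.0559 to 0.138).

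Of 17 tested members of the cDC1 surface list, 9 were lower in cDC2 and 0 higher, with a median log2 difference of -1.96, or -2.97 without cDC2 WT 1. The count of lower members was 8 and 3 with cDC2 WT 1 or cDC2 WT 2 left out, and 3 and 2 with cDC1 WT 1 or cDC1 WT 2 left out. The 9 were Cd8a, Cd207, Plpp1, Treml4, Clec9a, Cd24a, Cadm1, Cd36 and Tlr11. Clec9a, a receptor for actin exposed by dead cells, had 113 and 50.8 CPM in cDC2 WT, against 293 and 337 CPM in cDC1 WT (log2 difference -1.95 ± 0.47 (SE), adjusted p = 0.0163). Cadm1, an adhesion molecule, had 92.8 and 45.6 CPM in cDC2 WT, against 809 and 757 CPM in cDC1 WT, a 11.3-fold difference with a wide standard error (log2 difference -3.50 ± 0.96 (SE), adjusted p = 0.035). Xcr1, the chemokine receptor by which cDC1 are commonly recognised, had 226 and 65.1 CPM in cDC2 WT, against 469 and 658 CPM in cDC1 WT, and did not pass the test (adjusted p = 0.0727), although no cDC2 library reached a cDC1 library.

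The first of the cDC2 WT libraries held more of these transcripts than the second for Xcr1, for Clec9a and for Tlr3, an endosomal receptor for double-stranded RNA, which had 100.3 and 6.02 CPM in cDC2 WT, against 46.4 and 155 CPM in cDC1 WT. The second held more of Cd8a (9.71 and 18.1 CPM), and of Itgae and Ly75, given below. The first library's summed level of the cDC1 surface list was 1249 CPM, against 778 CPM in the second, and 3236 to 3799 CPM in cDC1 WT. In bulk libraries a few cells of the other subset and a low level in every cell cannot be told apart. Between the KO subsets Xcr1 had 57.6, 67.1 and 51.4 CPM in cDC2 KO, against 862 and 401 CPM in cDC1 KO, and passed (log2 difference -3.43, adjusted p = 0.00608). Itgae, which encodes the integrin chain CD103, had 32.8 and 36.9 CPM in cDC2 WT, against 76.9 and 56.1 CPM in cDC1 WT, and was not called (adjusted p = 0.36). Ly75, the endocytic receptor DEC-205, had 19.7 and 65.7 CPM in cDC2 WT, against 62.4 and 110.3 CPM in cDC1 WT, with overlapping groups. Without 1 library calls were lost as follows: those of Cadm1, Cd36 and Tlr11 without cDC2 WT 1 (adjusted p 0.0723 to 0.165), those of Plpp1, Clec9a, Cd24a, Cadm1, Cd36 and Tlr11 without cDC2 WT 2 (adjusted p 0.0598 to 0.184), those of Treml4, Clec9a, Cd24a, Cadm1, Cd36 and Tlr11 without cDC1 WT 1 (adjusted p 0.0521 to 0.139), and those of Plpp1, Treml4, Clec9a, Cd24a, Cadm1, Cd36 and Tlr11 without cDC1 WT 2 (adjusted p 0.0574 to 0.192).

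Of 23 tested genes of the cDC1 intracellular list, 7 were lower in cDC2 and 0 higher, and none of the 23 had a positive difference (median -1.44). The count of lower members was 7 and 3 with cDC2 WT 1 or cDC2 WT 2 left out, and 4 and 3 with cDC1 WT 1 or cDC1 WT 2 left out. Notch4, a Notch receptor, had 0 and 2.26 CPM in cDC2 WT, against 54.6 and 62.3 CPM in cDC1 WT (log2 difference -5.51 ± 0.90 (SE), adjusted p = 0.00236). Naaa, a lysosomal hydrolase of lipid amides, had 829 and 474 CPM in cDC2 WT, against 2369 and 2413 CPM in cDC1 WT (log2 difference -1.88 ± 0.34 (SE), adjusted p = 0.00384). Ppt1, a lysosomal thioesterase that removes palmitate from proteins, had 484 and 257 CPM in cDC2 WT, against 1386 and 1684 CPM in cDC1 WT (log2 difference -2.05 ± 0.39 (SE), adjusted p = 0.00504). Rab7b, a GTPase of late endosomes, had 198 and 102 CPM in cDC2 WT, against 541 and 788 CPM in cDC1 WT (log2 difference -2.15 ± 0.46 (SE), adjusted p = 0.00897). Wdfy4, a protein needed in mice for cross-presentation by cDC1, had 663 and 1014 CPM in cDC2 WT, against 840.5 and 887 CPM in cDC1 WT, with overlapping groups. Of these, the calls lost with 1 library left out were that of Rtl8b without cDC2 WT 1 (adjusted p = 0.0938), those of Ppt1, Rab7b, Pianp and Hepacam2 without cDC2 WT 2 (adjusted p 0.052 to 0.169), those of Pianp, Rtl8b and Hepacam2 without cDC1 WT 1 (adjusted p 0.0957 to 0.168), and those of Rab7b, Pianp, Rtl8b and Hepacam2 without cDC1 WT 2 (adjusted p 0.0635 to 0.0908).

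Of 20 tested transcription factors of the cDC2 list, 2 were higher in cDC2 and 0 lower, against 8.73% of all tested genes called. Zeb2, a zinc-finger repressor, had 526 and 620.2 CPM in cDC2 WT, against 72.0 and 45.9 CPM in cDC1 WT (log2 difference 3.28 ± 0.36 (SE), adjusted p = 6.59e-05). It was also called between the KO subsets. Irf4, which drives much of the cDC2 programme, had 53.2 and 46.1 CPM in cDC2 WT, against 14.1 and 7.46 CPM in cDC1 WT, and did not pass (adjusted p = 0.165). Klf4 had 2728 and 2317 CPM in cDC2 WT, against 952 and 1488 CPM in cDC1 WT (adjusted p = 0.106), and Rbpj, the DNA-binding partner of Notch, had 607 and 944 CPM in cDC2 WT, against 371 and 402 CPM in cDC1 WT (adjusted p = 0.106). For these 3 genes the cDC2 libraries lay above the cDC1 libraries, as they did for 22.3% of all tested genes.

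Of 9 tested cDC1 factors, 1 was lower in cDC2. Irf8 had 1707 and 758 CPM in cDC2 WT, against 5698 and 4731 CPM in cDC1 WT, a 4.23-fold difference (log2 difference -2.08 ± 0.37 (SE), adjusted p = 0.00378) that held without any 1 library. The other factors of cDC1 development showed no called difference. Batf3 had 86.4 and 59.6 CPM in cDC2 WT, against 84.2 and 67.9 CPM in cDC1 WT, Nfil3 had 30.4 and 77.9 CPM in cDC2 WT, against 78.1 and 29.5 CPM in cDC1 WT, and Id2 had 1358 and 734 CPM in cDC2 WT, against 1859.9 and 2449 CPM in cDC1 WT (adjusted p = 0.125). Zbtb46, a factor shared by both conventional subsets, had 69.2 and 38.7 CPM in cDC2 WT, against 41.7 and 64.3 CPM in cDC1 WT, with overlapping groups.

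Of 19 tested lectin and cytosolic receptors for microbial products, 6 were higher in cDC2 and 0 lower (median 1.23). The count of higher members was 3 and 2 with cDC2 WT 1 or cDC2 WT 2 left out, and 0 and 1 with cDC1 WT 1 or cDC1 WT 2 left out. Clec7a, which encodes the beta-glucan receptor Dectin-1, had 814 and 1134 CPM in cDC2 WT, against 73.6 and 50.2 CPM in cDC1 WT (log2 difference 3.98 ± 0.99 (SE), adjusted p = 0.0227). Mrc1, the mannose receptor, had 42.0 and 35.2 CPM in cDC2 WT, against 7.50 and 7.46 CPM in cDC1 WT (log2 difference 2.36 ± 0.71 (SE), adjusted p = 0.0466). The cytosolic RNA sensors Ddx58 (RIG-I) and Ifih1 (MDA5) were in this group too, with log2 differences of 3.42 ± 0.87 and 1.76 ± 0.43 (SE). None of the 6 was called between the KO subsets, where 1.27% of all tested genes were called and the list's median was 0.99.

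Of 18 tested Toll-like receptors and their helpers, 3 were lower in cDC2 and 1 higher. Their median log2 difference was -0.42, but -0.01 without cDC2 WT 1, and the difference between these receptors and the lectin and cytosolic list was not tested. Unc93b1, the chaperone that carries nucleic acid-sensing Toll-like receptors to endosomes, had 159.5 and 87.2 CPM in cDC2 WT, against 423 and 377 CPM in cDC1 WT (log2 difference -1.70 ± 0.32 (SE), adjusted p = 0.00441). The lower receptors were Tlr11 and Tlr12, which in mice recognise profilin of protozoan parasites. Tlr11 had 18.9 and 11.4 CPM in cDC2 WT, against 70.4 and 109 CPM in cDC1 WT (log2 difference -2.57 ± 0.75 (SE), adjusted p = 0.0458). Tlr12 had 11.4 and 1.20 CPM in cDC2 WT, against 42.9 and 35.0 CPM in cDC1 WT (log2 difference -2.69 ± 0.64 (SE), adjusted p = 0.0151). Tlr7 was higher in cDC2, but it was near the limit of counting in 3 of the 4 libraries, with 0.971 and 7.83 CPM in cDC2 WT, against 0.938 and 0.728 CPM in cDC1 WT (log2 difference 2.48 ± 0.72 (SE), adjusted p = 0.0387). Tlr9, a DNA receptor, had 312 and 217 CPM in cDC2 WT, against 162 and 229 CPM in cDC1 WT, and Tlr2, a receptor for bacterial lipopeptides, had 12.9 and 12.2 CPM in cDC2 WT, against 19.2 and 17.7 CPM in cDC1 WT, neither called. Among 8 tested Fc receptor genes, Fcer1g, the signalling chain shared by activating Fc receptors, was higher in cDC2 with 136 and 133 CPM in cDC2 WT, against 56.0 and 33.9 CPM in cDC1 WT (log2 difference 1.58 ± 0.32 (SE), adjusted p = 0.00628). Fcrla, an intracellular Fc receptor-like protein of the endoplasmic reticulum, was lower with 6.56 and 7.08 CPM in cDC2 WT, against 34.9 and 44.2 CPM in cDC1 WT (log2 difference -2.53 ± 0.43 (SE), adjusted p = 0.00269). The calls lost with 1 library left out were those of Mrc1, Ifih1 and Tlr11 without cDC2 WT 1 (adjusted p 0.0901 to 0.123), those of Clec7a, Mrc1, Ddx58, Tlr11, Tlr12 and Tlr7 without cDC2 WT 2 (adjusted p 0.0515 to 0.903), those of Clec7a, Mrc1, Ddx58, Ifih1, Tlr11, Tlr12 and Tlr7 without cDC1 WT 1 (adjusted p 0.0906 to 0.211), and those of Clec7a, Mrc1, Ddx58, Tlr11, Tlr7 and Fcer1g without cDC1 WT 2 (adjusted p 0.0738 to 0.196).

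The phagocyte NADPH oxidase, whose subunits make reactive oxygen in phagosomes, had members called in both directions. Cybb, the membrane catalytic subunit, had 1125 and 1165 CPM in cDC2 WT, against 197 and 157 CPM in cDC1 WT (log2 difference 2.70 ± 0.31 (SE), adjusted p = 1.04e-04). Ncf4, the cytosolic subunit p40phox, was lower in cDC2 with 23.8 and 27.3 CPM in cDC2 WT, against 70.6 and 53.2 CPM in cDC1 WT (log2 difference -1.27 ± 0.37 (SE), adjusted p = 0.0387), a call that ended when any 1 of the 4 libraries was left out and with the offsets for length and GC content (adjusted p = 0.219). Across the list of 16 tested cross-presentation genes 2 were higher and 2 lower, the other lower one being the vesicle GTPase Rab32.

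Genes of MHC class II presentation were lower in cDC2 for 5 of 23 tested members and higher for 2. Of the 23, 12 had a positive difference, and the median log2 difference was 0.004. The count of lower members was 2 and 2 with cDC2 WT 1 or cDC2 WT 2 left out, and 1 and 2 with cDC1 WT 1 or cDC1 WT 2 left out. H2-Ab1, H2-Aa and H2-Eb1, which encode class II chains, and H2-DMa, which helps load peptide, had log2 differences of -1.28, -1.05, -1.09 and -1.14 (SE 0.26, 0.26, 0.30 and 0.28). H2-Ab1 had 2429 and 2689 CPM in cDC2 WT, against 6639.6 and 5809 CPM in cDC1 WT, with no overlap. These 4 calls did not hold with the offsets for length and GC content (adjusted p 0.0928 for H2-Aa to 0.111 for H2-Eb1). With the offsets 1 of the 23 list members was lower and 3 were higher (median 0.1). In the KO libraries the log2 differences of these 4 genes were between -0.17 for H2-DMa and 0.03 for H2-Aa. Cst3, which encodes the cysteine protease inhibitor cystatin C, was lower with 4177 and 2726 CPM in cDC2 WT, against 16534 and 12279 CPM in cDC1 WT (log2 difference -2.06 ± 0.31 (SE), adjusted p = 0.00112), and it remained so with the offsets (adjusted p = 0.0134) and between the KO subsets (log2 difference -1.53, adjusted p = 0.00483). The cysteine proteases Ctsc and Ctss were higher in cDC2, with log2 differences of 1.34 ± 0.28 and 1.78 ± 0.50 (SE). Of 23 tested class I presentation genes, 2 subunits of the immunoproteasome, Psmb8 and Psmb9, were lower in cDC2, and 0 were higher. Psmb9 had 60.9 and 98.5 CPM in cDC2 WT, against 260.1 and 231 CPM in cDC1 WT (log2 difference -1.62 ± 0.33 (SE), adjusted p = 0.00778). Lost with 1 library left out were those of H2-Aa, H2-Eb1, H2-DMa, Psmb8 and Psmb9 without cDC2 WT 1 (adjusted p 0.0536 to 0.125), those of H2-Aa, H2-Eb1, H2-DMa, Ctss and Psmb8 without cDC2 WT 2 (adjusted p 0.0601 to 0.576), those of H2-Ab1, H2-Aa, H2-Eb1, H2-DMa, Ctss, Psmb8 and Psmb9 without cDC1 WT 1 (adjusted p 0.0619 to 0.212), and those of H2-Aa, H2-Eb1, H2-DMa, Ctsc, Ctss and Psmb8 without cDC1 WT 2 (adjusted p 0.0673 to 0.107).

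Some interferon-stimulated genes were higher in cDC2. Of 33 tested genes of the type I interferon list, 8 were higher and 0 lower, with a median log2 difference of 0.64 in WT and 0.93 in KO. The count of higher members was 5 and 4 with cDC2 WT 1 or cDC2 WT 2 left out, and 1 and 5 with cDC1 WT 1 or cDC1 WT 2 left out. Another member was called lower with cDC2 WT 1 left out. The 8 were Ifit1, Ifit2, Ifit3, Oasl2, Oas2, Ifih1, Rsad2 and Parp14. Ifit1, which binds viral RNA, had 85.7 and 153 CPM in cDC2 WT, against 12.2 and 15.3 CPM in cDC1 WT (log2 difference 3.11 ± 0.40 (SE), adjusted p = 3.01e-04). Between the KO subsets it had 435, 306 and 303 CPM in cDC2 KO, against 29.3 and 36.6 CPM in cDC1 KO (log2 difference 3.40, adjusted p = 1.23e-04), with no overlap in either genotype. Ifit3, its partner protein, had 21.6 and 22.9 CPM in cDC2 WT, against 1.88 and 5.28 CPM in cDC1 WT (log2 difference 2.61 ± 0.58 (SE), adjusted p = 0.0108). Ifi206, a member of the interferon-inducible IFI200 family of nuclear proteins, had 36.7 and 31.9 CPM in cDC2 WT, against 1.64 and 1.82 CPM in cDC1 WT (log2 difference 4.29 ± 0.48 (SE), adjusted p = 7.59e-05). With the offsets 5 list members were higher, 4 of them among the 8 (Ifit1, Ifit3, Oasl2 and Oas2), and between the KO subsets 6 were higher. Calls lost with 1 library left out were those of Ifit2, Ifih1, Rsad2 and Parp14 without cDC2 WT 1 (adjusted p 0.0714 to 0.108), those of Ifit2, Oasl2, Oas2 and Rsad2 without cDC2 WT 2 (adjusted p 0.0605 to 0.219), those of Ifit2, Ifit3, Oasl2, Oas2, Ifih1, Rsad2 and Parp14 without cDC1 WT 1 (adjusted p 0.0841 to 0.223), and those of Ifit2, Oasl2 and Rsad2 without cDC1 WT 2 (adjusted p 0.0552 to 0.0756).

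Promoter sequences were examined because interferon and IRF factors act through known short motifs. RefSeq promoters (GRCm38.p6, 250 bases before to 50 after the start) were found for 344 of the 440 higher and 447 of the 585 lower genes. An interferon response motif written GAAA, any 2 bases and GAAA, searched on both strands, was in 6.10% of promoters of genes higher in cDC2, 3.36% of those of genes lower in cDC2, 3.34% of the promoters of 9258 tested genes and 3.49% of all 27025 promoters. Among genes called higher in both genotypes it was in 9 of 58 promoters (15.5%), and among those lower in both in 2 of 34 (5.88%). A composite motif of ETS and IRF factors, GGAA, any 2 bases and GAAA, was in 4.65% of promoters of higher and 1.57% of lower genes, against 2.54% of tested genes and 2.79% of all promoters. The 2 patterns can match overlapping letters. An AP-1 motif, TGANTCA, was in 4.94% of promoters of higher and 7.83% of lower genes, against 4.91% of tested genes and 7.93% of all promoters. These shares were not tested. The GC content of the windows, which bears on how often such letters occur, had a median of 59.3% for higher, 60.0% for lower and 61.0% for tested genes, but 51.7% for genes higher in both genotypes and 56.8% for those lower in both.

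The promoters of 3 genes higher in cDC2 of both genotypes, Cybb, Ifit1 and Ifi206, and of Cd8a, lower in both, are shown 5′ to 3′ on the strand of the gene, because they hold these motifs, with the matched letters in capitals. A match on the other strand reads as its reverse complement. Cybb (chrX:9469275-9469574, minus strand) holds 3 interferon response motifs, at -168 to -159, -124 to -115 and -29 to -20 relative to the RefSeq start, as well as 1 composite motif at 3 to 12 and 1 AP-1 motif at -139 to -133. Ifit1 (chr19:34640639-34640938, plus strand) holds 2 interferon response motifs, at -104 to -95 and -85 to -76. Ifi206 (chr1:173491269-173491568, minus strand) holds 1, at -40 to -31. Cd8a (chr6:71373177-71373476, plus strand) holds none of that motif and 2 composite motifs, at -158 to -149 and -136 to -127.
Cybb: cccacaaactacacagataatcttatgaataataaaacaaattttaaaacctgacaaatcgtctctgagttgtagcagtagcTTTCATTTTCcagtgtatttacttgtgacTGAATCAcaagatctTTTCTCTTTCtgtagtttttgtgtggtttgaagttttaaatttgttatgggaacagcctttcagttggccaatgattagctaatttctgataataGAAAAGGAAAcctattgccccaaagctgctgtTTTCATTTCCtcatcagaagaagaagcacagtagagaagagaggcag
Ifit1: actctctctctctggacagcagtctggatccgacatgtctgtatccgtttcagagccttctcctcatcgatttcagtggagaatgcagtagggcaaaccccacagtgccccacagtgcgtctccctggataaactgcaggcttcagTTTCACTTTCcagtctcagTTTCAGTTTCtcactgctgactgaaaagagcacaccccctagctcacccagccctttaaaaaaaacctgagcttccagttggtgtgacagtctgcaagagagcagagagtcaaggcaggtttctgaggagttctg
Ifi206: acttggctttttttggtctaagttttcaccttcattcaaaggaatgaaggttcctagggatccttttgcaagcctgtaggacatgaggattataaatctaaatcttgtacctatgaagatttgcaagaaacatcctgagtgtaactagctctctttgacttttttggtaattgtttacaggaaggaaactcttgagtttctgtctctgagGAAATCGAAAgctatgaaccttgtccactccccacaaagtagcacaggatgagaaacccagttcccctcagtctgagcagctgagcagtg
Cd8a: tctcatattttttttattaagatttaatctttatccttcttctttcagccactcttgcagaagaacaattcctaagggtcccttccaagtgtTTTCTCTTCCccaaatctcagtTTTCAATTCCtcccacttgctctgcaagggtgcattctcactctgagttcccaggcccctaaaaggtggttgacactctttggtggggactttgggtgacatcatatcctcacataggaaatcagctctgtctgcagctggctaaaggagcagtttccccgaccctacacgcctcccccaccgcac
No binding was measured, and a match or its absence says only which letters are in the window.

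Chemokine receptors differed in both directions. Of 23 tested, 4 were higher in cDC2 (Cx3cr1, Ccr1, Cxcr2 and Cmklr1, a receptor of chemerin) and 1 lower. Cx3cr1, the fractalkine receptor of blood-derived myeloid cells, had 163 and 62.1 CPM in cDC2 WT, against 16.4 and 11.8 CPM in cDC1 WT (log2 difference 3.0 ± 0.54 (SE), adjusted p = 0.00384). Ccr1, a receptor of inflammatory chemokines, had 33.5 and 30.9 CPM in cDC2 WT, against 6.57 and 1.64 CPM in cDC1 WT (log2 difference 2.99 ± 0.64 (SE), adjusted p = 0.00923). Cxcr2, best known from neutrophils, had 10.7 and 8.89 CPM in cDC2 WT, against 0 and 0 CPM in cDC1 WT, at least 31.1-fold higher in cDC2 against the floor of 3 counts. The receptor lower in cDC2 was Cxcr3, which binds interferon-induced chemokines, with 2.67 and 1.51 CPM in cDC2 WT, against 20.2 and 27.1 CPM in cDC1 WT (log2 difference -3.53 ± 0.51 (SE), adjusted p = 7.20e-04). Ccr2, the receptor that guides monocytes and migratory cDC2, had 1201 and 531 CPM in cDC2 WT, against 181 and 440 CPM in cDC1 WT, and did not pass (adjusted p = 0.075). Ccr7, which takes mature dendritic cells to the medulla and to lymph nodes, had 109 and 292 CPM in cDC2 WT, against 532 and 159.6 CPM in cDC1 WT, with overlapping groups.

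Among 18 tested chemokines, Ccl17, a ligand of CCR4, and Ccl6 were higher in cDC2 and 0 were lower. Ccl17 had 77.5 and 217 CPM in cDC2 WT, against 22 and 12.7 CPM in cDC1 WT (log2 difference 3.09 ± 0.82 (SE), adjusted p = 0.0306). Ccl22, the other CCR4 ligand, had 53.7 and 49.0 CPM in cDC2 WT, against 86.5 and 42.2 CPM in cDC1 WT, and was not called. Xcl1, the ligand of XCR1, had 3.40 and 1.36 CPM in cDC2 WT, against 24.9 and 3.46 CPM in cDC1 WT, uneven between the cDC1 libraries. Among these receptors and chemokines, left-out libraries ended calls as follows: those of Cxcr2, Cmklr1 and Ccl6 without cDC2 WT 1 (adjusted p 0.0638 to 0.132), those of Cxcr2, Ccl17 and Ccl6 without cDC2 WT 2 (adjusted p 0.0644 to 0.171), those of Cxcr2, Cmklr1, Ccl17 and Ccl6 without cDC1 WT 1 (adjusted p 0.0906 to 0.278), and those of Ccr1, Cxcr2, Cmklr1, Ccl17 and Ccl6 without cDC1 WT 2 (adjusted p 0.0702 to 0.203).

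Of 24 tested cytokines 3 were lower in cDC2 and 0 higher. Ebi3, a subunit shared by the cytokines IL-27 and IL-35, had 4.37 and 7.83 CPM in cDC2 WT, against 29.1 and 28.2 CPM in cDC1 WT (log2 difference -2.21 ± 0.54 (SE), adjusted p = 0.0172). Il15, a growth factor of NK and memory T cells, had 5.83 and 3.92 CPM in cDC2 WT, against 23.2 and 26.4 CPM in cDC1 WT (log2 difference -2.36 ± 0.63 (SE), adjusted p = 0.0282). Tnfsf13b, which encodes the B cell survival factor BAFF, had 0 and 0 CPM in cDC2 WT, against 9.38 and 3.46 CPM in cDC1 WT, at least 21.7-fold lower in cDC2. For Ebi3 and Il15 the KO subsets lay close together (log2 differences -0.29 and -0.14). Among 36 tested growth factor and cytokine receptors, Il2rg, Csf1r, Lifr and Il21r were higher and Il3ra lower. Il2rg, the common gamma chain, had 106 and 88.6 CPM in cDC2 WT, against 30.7 and 20.4 CPM in cDC1 WT (log2 difference 1.93 ± 0.40 (SE), adjusted p = 0.00838). Calls lost with 1 library left out were those of Ebi3, Il15, Tnfsf13b and Lifr without cDC2 WT 1 (adjusted p 0.0626 to 0.104), those of Il15, Tnfsf13b and Il3ra without cDC2 WT 2 (adjusted p 0.117 to 0.137), those of Ebi3, Il15, Tnfsf13b, Lifr, Il21r and Il3ra without cDC1 WT 1 (adjusted p 0.0538 to 0.181), and those of Ebi3, Il15, Tnfsf13b, Il2rg, Lifr, Il21r and Il3ra without cDC1 WT 2 (adjusted p 0.0518 to 0.113).

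Of 20 tested ligands for T cell receptors of costimulation or inhibition, 1 passed, with 8.73% called over all tested genes: Cd274, which encodes PD-L1, had 75.0 and 85.7 CPM in cDC2 WT, against 38.0 and 16.4 CPM in cDC1 WT (log2 difference 1.57 ± 0.46 (SE), adjusted p = 0.0404), a call lost with the offsets (adjusted p = 0.105). Cd86, a ligand of CD28, had 239 and 267 CPM in cDC2 WT, against 257 and 208 CPM in cDC1 WT. Cd80, the other CD28 ligand, had 40.3 and 126 CPM in cDC2 WT, against 86.5 and 33.7 CPM in cDC1 WT. Cd40, the receptor for help from T cells, had 31.1 and 39.5 CPM in cDC2 WT, against 34.7 and 33.9 CPM in cDC1 WT. The groups overlapped for all 3. In the maturation list 3 of 29 were higher in cDC2, Stat4, Nfkb1 and Ccl17, against 3.75% over all tested genes. Nfkb1, a subunit of NF-kB, had 625 and 563 CPM in cDC2 WT, against 245 and 239 CPM in cDC1 WT (log2 difference 1.30 ± 0.34 (SE), adjusted p = 0.0247). Left-out libraries ended these calls: those of Cd274, Stat4 and Nfkb1 without cDC2 WT 1 (adjusted p 0.0761 to 0.0942), those of Cd274 and Nfkb1 without cDC2 WT 2 (adjusted p 0.059 to 0.123), those of Stat4 and Nfkb1 without cDC1 WT 1 (adjusted p 0.121 to 0.162), and those of Cd274, Stat4 and Nfkb1 without cDC1 WT 2 (adjusted p 0.0647 to 0.267).

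In the Notch pathway, 3 of 27 tested genes passed, a share near the 8.73% called over all tested genes. Notch4 and Mfng, a glycosyltransferase that modifies Notch receptors, were lower in cDC2, and Maml3, a coactivator of Notch, was higher. Mfng had 6.07 and 5.57 CPM in cDC2 WT, against 20.2 and 24.4 CPM in cDC1 WT (log2 difference -1.94 ± 0.41 (SE), adjusted p = 0.00838). Maml3 had 49.0 and 66.1 CPM in cDC2 WT, against 17.6 and 11.5 CPM in cDC1 WT (log2 difference 1.99 ± 0.46 (SE), adjusted p = 0.0135). Notch2, the receptor on which splenic cDC2 depend in mice, had 82.8 and 63.7 CPM in cDC2 WT, against 106 and 158 CPM in cDC1 WT, and was not called (adjusted p = 0.137), and the target Hes1 had 34.2 and 29.5 CPM in cDC2 WT, against 100.4 and 77.4 CPM in cDC1 WT (adjusted p = 0.36). Between the KO subsets Notch4 and Maml3 were called in the same directions, while Mfng had a log2 difference of 0.17. Lost with 1 library left out were that of Maml3 without cDC2 WT 2 (adjusted p = 0.0634), that of Maml3 without cDC1 WT 1 (adjusted p = 0.0546), and those of Mfng and Maml3 without cDC1 WT 2 (adjusted p 0.0552 to 0.123).

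Adhesion genes changed in both directions, 5 higher and 6 lower of 31 tested. The count of lower members was 2 and 1 with cDC2 WT 1 or cDC2 WT 2 left out, and 0 and 1 with cDC1 WT 1 or cDC1 WT 2 left out, while 3 to 5 were then higher. Cdh1, which encodes E-cadherin, had 118 and 108 CPM in cDC2 WT, against 10.3 and 6.74 CPM in cDC1 WT (log2 difference 3.73 ± 0.38 (SE), adjusted p = 2.44e-05). Epcam, another homophilic adhesion molecule of epithelia and Langerhans cells, had 87.4 and 250.2 CPM in cDC2 WT, against 26.0 and 14.9 CPM in cDC1 WT (log2 difference 3.05 ± 0.49 (SE), adjusted p = 0.00203). Klrd1, which encodes the lectin CD94 of NK cell receptors, is not on that list and had 216 and 211 CPM in cDC2 WT, against 31.7 and 21.7 CPM in cDC1 WT (log2 difference 3.0 ± 0.33 (SE), adjusted p = 6.59e-05). These 3 calls held without any 1 library and between the KO subsets. Cd81, a tetraspanin, was among the lower genes with 2.43 and 14.3 CPM in cDC2 WT, against 126 and 87.0 CPM in cDC1 WT (log2 difference -3.63 ± 0.94 (SE), adjusted p = 0.028). Itgal, which encodes the LFA-1 alpha chain, had 62.6 and 47.6 CPM in cDC2 WT, against 151 and 127 CPM in cDC1 WT (log2 difference -1.33 ± 0.39 (SE), adjusted p = 0.0387). Calls lost with 1 library left out were those of Cd81 and Itgal without cDC2 WT 1 (adjusted p 0.0765 to 0.105), that of Itgal without cDC2 WT 2 (adjusted p = 0.182), those of Cd81 and Itgal without cDC1 WT 1 (adjusted p 0.133 to 0.212), and those of Cd81 and Itgal without cDC1 WT 2 (adjusted p 0.0671 to 0.0891).

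Lysosomal genes were lower in cDC2 for 10 of 32 tested members and higher for 1, with a median log2 difference of -0.56. The count of lower lysosomal genes was 9 and 3 with cDC2 WT 1 or cDC2 WT 2 left out, and 3 and 6 with cDC1 WT 1 or cDC1 WT 2 left out. Psap, the precursor of the saposins that help degrade sphingolipids, had 912 and 737 CPM in cDC2 WT, against 3465 and 2913 CPM in cDC1 WT (log2 difference -1.95 ± 0.27 (SE), adjusted p = 5.11e-04). Gusb, which encodes beta-glucuronidase, had 86.7 and 75.5 CPM in cDC2 WT, against 277 and 396 CPM in cDC1 WT (log2 difference -2.05 ± 0.34 (SE), adjusted p = 0.00269). With the offsets for length and GC content 8 were lower and 2 higher. In KO 2 were lower and 1 higher, with a median of -0.03. Psap had 1100.3, 978 and 1064 CPM in cDC2 KO, against 1979 and 2079.7 CPM in cDC1 KO there (log2 difference -0.95, adjusted p = 0.0522). Grn and Npc2, which encode progranulin and a sterol transporter, were among the lower genes, and calls lost with 1 library left out were those of Grn and Npc2 without cDC2 WT 2 (adjusted p 0.0509 to 0.0532) and those of Grn and Npc2 without cDC1 WT 1 (adjusted p 0.0771 to 0.13).

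Part of the genes of translation and respiration were lower in cDC2 WT. Of 81 tested cytosolic ribosomal protein genes, a set picked after the library shares had been seen, 36 were lower in cDC2, 0 higher and 45 not called, with a median log2 difference of -1.08, and of 53 tested oxidative phosphorylation genes 15 were lower, 0 higher and 38 not called (median -0.85). The lower ribosomal protein genes numbered 22 and 19 with cDC2 WT 1 or cDC2 WT 2 left out, and 20 and 20 with cDC1 WT 1 or cDC1 WT 2 left out. The lower oxidative phosphorylation genes numbered 3 and 1 with cDC2 WT 1 or cDC2 WT 2 left out, and 0 and 5 with cDC1 WT 1 or cDC1 WT 2 left out. The transcripts of both lists are short, with median lengths of 937 and 875 bases against 3090.5 over all tested genes. With the offsets 21 of the 81 and 2 of the 53 were lower. In KO, where 1.27% of all tested genes were called, 0 of either list were called, and the medians were -0.24 and -0.21. Rpl11 had 65.1 and 52.3 CPM in cDC2 WT, against 225 and 282 CPM in cDC1 WT (log2 difference -2.11 ± 0.30 (SE), adjusted p = 6.11e-04). In the KO libraries it had 135, 161 and 145 CPM in cDC2 KO, against 199 and 199 CPM in cDC1 KO. Cox4i1, a subunit of the last complex of the respiratory chain, had 121 and 116 CPM in cDC2 WT, against 302 and 258 CPM in cDC1 WT (log2 difference -1.24 ± 0.28 (SE), adjusted p = 0.0111). In the KO libraries it had 213, 196 and 259 CPM in cDC2 KO, against 236 and 277 CPM in cDC1 KO (log2 difference -0.20, adjusted p = 0.984). In WT its call was lost without cDC2 WT 2 (adjusted p = 0.0564) and without cDC1 WT 1 (adjusted p = 0.0986).

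A trend with transcript length ran through the whole table. In 10 bins of 1171 or 1172 genes by transcript length, the median log2 difference was -0.66 in the bin of shortest transcripts (median 934 bases) and 0.48 in that of the longest (median 8206 bases), and it was higher in each bin than in the next shorter one. The shortest bin held 22 genes higher and 154 lower in cDC2, and the longest 95 higher and 17 lower. Between the KO subsets the same bins had medians of -0.15 and 0.09. The offsets reduced the medians in WT to -0.20 and -0.03. With the offsets 692 genes were called (5.89%), 292 higher (2.49%) and 400 lower (3.41%), and they kept 248 of the 440 higher and 336 of the 585 lower genes. Whether library make-up gave the short-transcript calls was not tested.

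**Figure D3:**
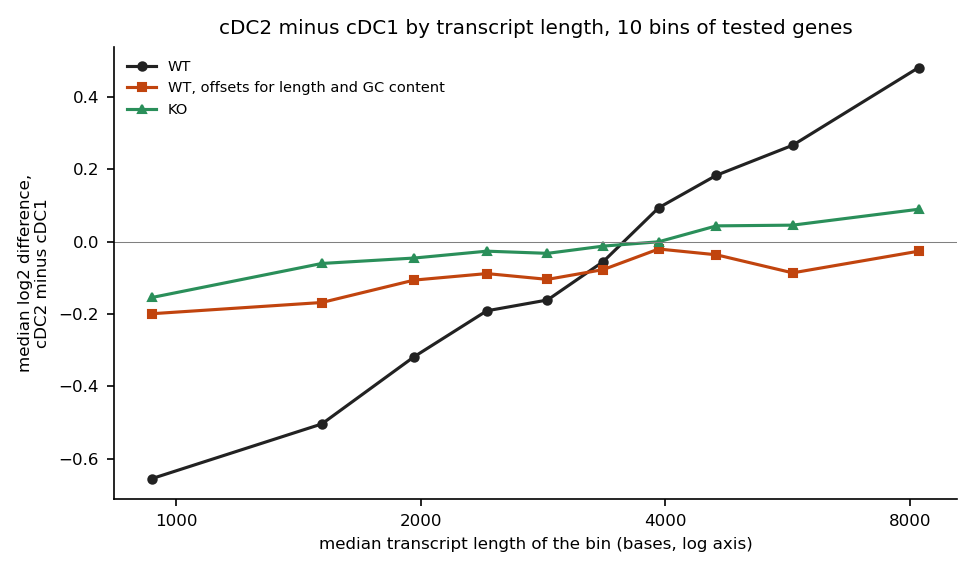
Median log2 difference, cDC2 minus cDC1, against the median transcript length (bases, log axis) of 10 bins of tested genes, in WT, in WT with offsets by length and GC content in each library, and in KO. The WT line climbs from -0.66 to 0.48, while the offset line stays between -0.20 and -0.02 and the KO line between -0.15 and 0.09.

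Of 22 tested glycolysis genes 4 were lower in cDC2 (Ldha, Pgam1, Tpi1 and Aldoa) and of 32 tested genes of cholesterol and fatty acid synthesis 4 were lower (Fdps, Srebf2, Fasn and Fads1), with 0 higher in either list. Of 32 tested cell cycle genes 4 were higher in cDC2 and 1 lower. Top2a, a topoisomerase of dividing cells, had 577 and 823 CPM in cDC2 WT, against 252 and 194 CPM in cDC1 WT (log2 difference 1.65 ± 0.33 (SE), adjusted p = 0.00692). With the offsets 0 glycolysis, 0 cell cycle and 1 of the synthesis genes were called, against 5.89% of all tested genes. Between the KO subsets none of the 3 lists had a call, against 1.27% of all tested genes. Ldha had 127 and 98.1 CPM in cDC2 WT, against 282 and 226 CPM in cDC1 WT (log2 difference -1.18 ± 0.32 (SE), adjusted p = 0.0293), and calls lost with 1 library left out were those of Ldha and Fdps without cDC2 WT 1 (adjusted p 0.0536 to 0.113), that of Ldha without cDC2 WT 2 (adjusted p = 0.147), those of Ldha and Fdps without cDC1 WT 1 (adjusted p 0.0801 to 0.203), and those of Ldha, Top2a and Fdps without cDC1 WT 2 (adjusted p 0.0647 to 0.165).

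The largest fitted differences belonged to genes with no read in one subset. In cDC2 WT, 37 of the 585 lower genes had no count, and at the floor of 3 counts over the group they were at least 4.04-fold to 187-fold lower than in cDC1 WT. After Cd207 the largest were Naalad2, a peptidase of the glutamate carboxypeptidase family, with 0 and 0 CPM in cDC2 WT, against 17.8 and 32.8 CPM in cDC1 WT, at least 94.1-fold lower, and Dkk3, a secreted protein of the Dickkopf family, with 0 and 0 CPM in cDC2 WT, against 16.9 and 32.0 CPM in cDC1 WT, at least 91.1-fold lower. Both calls held without any 1 library. All 37 genes had at least 1 count in the cDC2 KO libraries, which were deeper in total. Snx24, a sorting nexin, had 0 and 0 CPM in cDC2 WT, against 15.7 and 10.7 CPM in cDC1 WT. In the KO libraries it had 2.57, 3.11 and 5.52 CPM in cDC2 KO, against 9.55 and 14.7 CPM in cDC1 KO, and the difference was not called (log2 difference -1.70, adjusted p = 0.491).

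Of the 440 higher genes, 6 had no count in cDC1 WT, namely Cd300ld, Cxcr2, F10, Il1rl1, Spon1 and Gpr25. F10, which encodes coagulation factor X, had 7.04 and 9.49 CPM in cDC2 WT, against 0 and 0 CPM in cDC1 WT, at least 27.8-fold higher in cDC2. Il1rl1, which encodes the IL-33 receptor ST2, had 7.77 and 6.33 CPM in cDC2 WT, against 0 and 0 CPM in cDC1 WT, at least 22.4-fold higher. Spon1, an extracellular matrix protein, had 3.64 and 4.97 CPM in cDC2 WT, against 0 and 0 CPM in cDC1 WT, at least 14.5-fold higher, and was called between the KO subsets as well, with 14.4, 11 and 14.7 CPM in cDC2 KO, against 0.523 and 1.17 CPM in cDC1 KO (log2 difference 3.96, adjusted p = 0.0121). Lost with 1 library left out were that of Il1rl1 without cDC2 WT 1 (adjusted p = 0.0611), those of F10, Il1rl1 and Gpr25 without cDC2 WT 2 (adjusted p 0.0598 to 0.0797), those of F10, Il1rl1 and Gpr25 without cDC1 WT 1 (adjusted p 0.144 to 0.176), and those of F10, Il1rl1 and Gpr25 without cDC1 WT 2 (adjusted p 0.14 to 0.167).

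Other genes with small p had roles outside the lists. Among the higher genes, Rin2, an exchange factor for the endosomal GTPase RAB5, had 51.5 and 52.6 CPM in cDC2 WT, against 0.938 and 3.09 CPM in cDC1 WT (log2 difference 4.63 ± 0.55 (SE), adjusted p = 1.20e-04). Pltp, the phospholipid transfer protein, had 24.0 and 10.2 CPM in cDC2 WT, against 1.88 and 1.64 CPM in cDC1 WT (log2 difference 3.26 ± 0.43 (SE), adjusted p = 3.66e-04). Tbc1d16, a GTPase-activating protein for Rab proteins, had 49.3 and 60.5 CPM in cDC2 WT, against 8.68 and 7.10 CPM in cDC1 WT (log2 difference 2.80 ± 0.40 (SE), adjusted p = 6.53e-04). Among the lower genes, Serpinf1, which encodes the secreted factor PEDF, had 9.47 and 10.7 CPM in cDC2 WT, against 83.3 and 77.2 CPM in cDC1 WT (log2 difference -2.99 ± 0.38 (SE), adjusted p = 3.01e-04). Tubb2b, a beta-tubulin, had 5.58 and 5.12 CPM in cDC2 WT, against 34.7 and 30.0 CPM in cDC1 WT (log2 difference -2.60 ± 0.34 (SE), adjusted p = 3.73e-04). Pdlim2, a PDZ and LIM domain protein, had 2.91 and 4.82 CPM in cDC2 WT, against 37.3 and 35.1 CPM in cDC1 WT (log2 difference -3.20 ± 0.44 (SE), adjusted p = 5.12e-04). These 6 genes were picked from called genes whose cDC2 WT and cDC1 WT libraries did not overlap, so the gap in WT follows from that choice. Between the KO subsets all but Pdlim2 were called in the same direction.

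The KO libraries give a second set of cDC2 and cDC1 cells that shares no library with the WT comparison, though both share the estimate of spread. Between them 149 genes were called (1.27%), 85 higher in cDC2 (0.724%) and 64 lower (0.545%). With 1 library left out the calls were 14 higher and 13 lower without cDC1 KO 2, 18 and 17 without cDC1 KO 1, 54 and 29 without cDC2 KO 3, 62 and 32 without cDC2 KO 2, and 61 and 42 without cDC2 KO 1. Of the 440 genes higher in WT, 406 (92.3%) had a positive difference in KO, and of the 585 lower genes 539 (92.1%) had a negative one, against 65.8% of same sign over all tested genes. The median log2 difference of the 440 was 0.74 in KO and 1.79 in WT, and that of the 585 was -0.49 in KO and -1.76 in WT. Values chosen for being extreme in WT tend to be less so in other libraries, so these medians do not show a smaller gap in KO. Of the 440, 75 were called higher in KO too, and of the 585, 46 were called lower, with 0 called in the opposite direction. These numbers depend on the libraries fitted. Fits of only the groups compared, in place of all 15 libraries, called 348 higher and 232 lower in KO, against 165 and 144 in WT. With that KO fit the 75 and 46 became 150 and 110. In KO, the groups did not overlap for 275 of the 440 (cDC2 higher, 16.2% of all tested genes) and 380 of the 585 (cDC2 lower, 18.5% of all tested genes). The 121 genes called in both included the surface receptors Cd300lf, Sirpa, Clec4a1, Clec4a2, Clec4a3, Cd209a and Csf1r, and, among the lower genes, Clec9a, Cd24a, Cd36, Irf8, Naaa, Ppt1 and Cxcr3.

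The difference between the genotypes itself, tested as an interaction, was past the threshold for 1 gene of 11746 (0.00851%) by edgeR, while 994 genes had an unadjusted p under 0.05 and DESeq2 called 40. The gene was Mctp2, which encodes a calcium-binding membrane protein. It had 2.91 and 5.27 CPM in cDC2 WT, against 0.469 and 0.182 CPM in cDC1 WT (log2 difference 3.69 ± 0.64 (SE), adjusted p = 0.0032). In the KO libraries it had 0.428, 0.878 and 0.290 CPM in cDC2 KO, against 1.83 and 1.75 CPM in cDC1 KO (log2 difference -1.59, adjusted p = 0.145). The difference of differences was 5.28 ± 0.81 (SE, adjusted p = 0.0472), so cDC2 were above cDC1 in WT and below them, without a call, in KO. All of these levels were low, while the 3 pDC WT libraries had 341, 286 and 459.8 CPM. The call was lost with the replicate block (adjusted p = 0.0832) and with the offsets (adjusted p = 0.0984). Leaving out 1 of the 9 libraries ended it in 7 cases (adjusted p up to 0.412, without cDC1 WT 2) and not without cDC2 WT 1 or cDC2 KO 2 (adjusted p = 0.0221 and 0.0191).

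**Figure D4:**
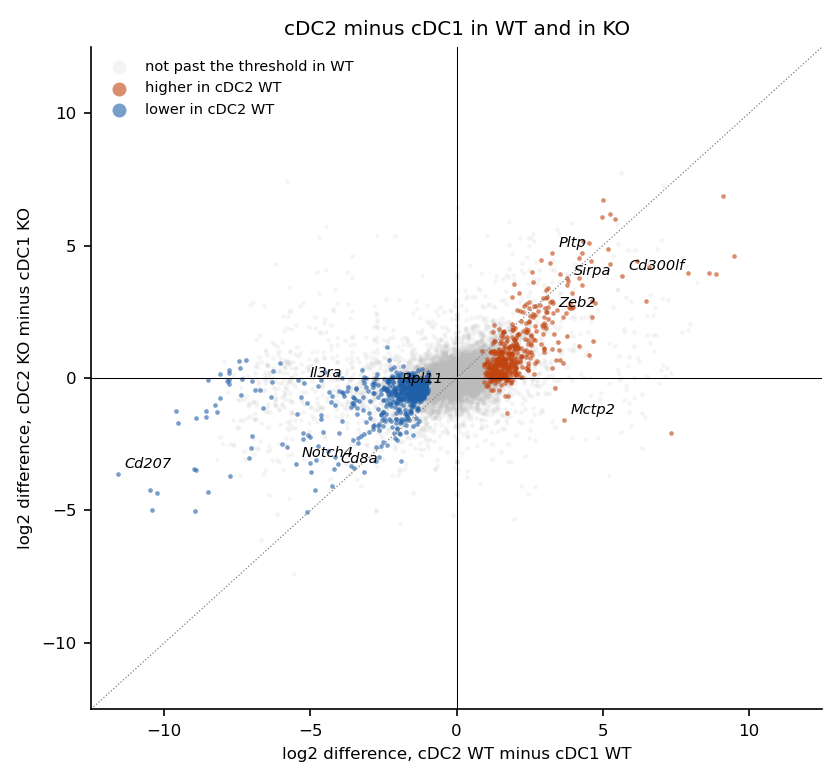
Each point is 1 tested gene, with the log2 difference cDC2 minus cDC1 in WT on the x axis and in KO on the y axis, and the dotted line marks equal differences. Genes called in WT are coloured, and most lie in the quadrants of same sign (406 of 440 and 539 of 585). The points farthest to the left include genes with no count in cDC2 WT.

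Values of the lists in WT and in KO are given side by side, and no difference of a list between the genotypes was tested. For cDC2 surface genes the median log2 difference was 2.39 in WT and 2.31 in KO, with 17 and 13 members higher. For cDC1 surface genes it was -1.96 in WT and -2.50 in KO, with 9 and 8 members lower. For the cDC2 intracellular list 9 of 29 were higher and 2 lower in WT, S100a11 and Alox5ap being the lower ones, against 7 higher and 0 lower in KO. For the class I presentation list the medians were -0.75 in WT and 0.11 in KO, and for the Notch list -0.85 and -0.04. No list beyond that of pDC markers, which holds Mctp2, had a gene called in the interaction.

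**Figure D5:**
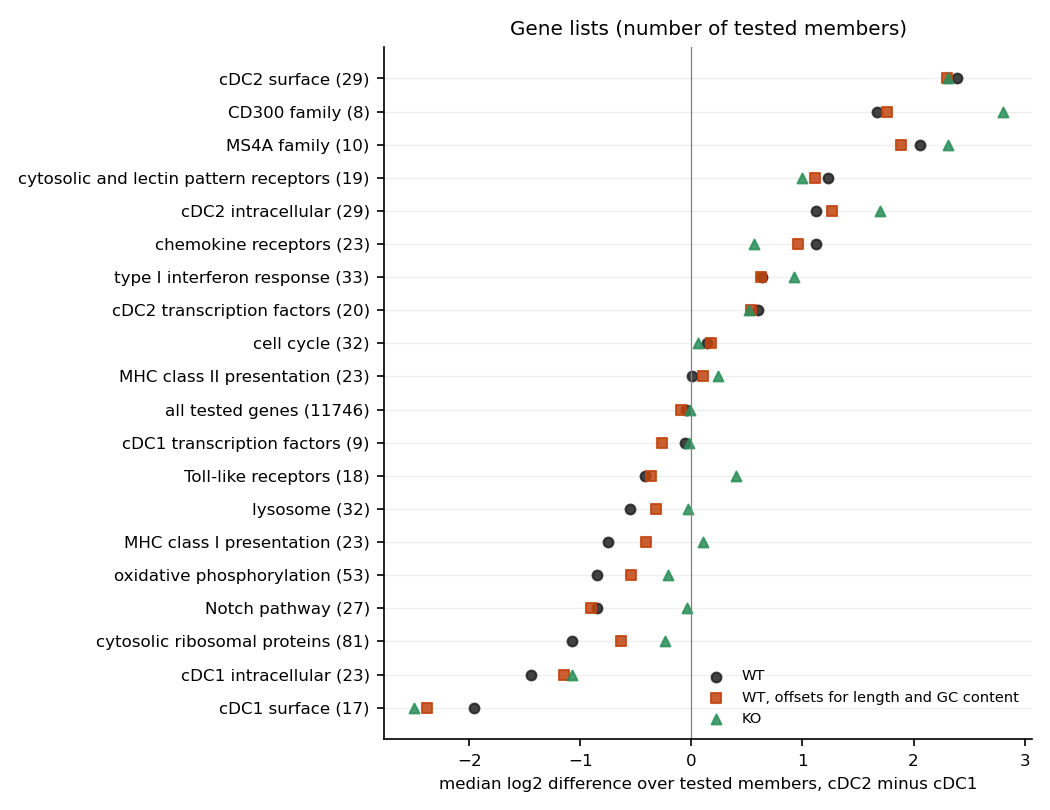
Median log2 difference, cDC2 minus cDC1, over the tested members of each list (number in brackets), in WT, in WT with offsets for length and GC content, and in KO. The cDC2 surface, CD300, MS4A and interferon lists lie above 0 and the cDC1 surface and intracellular lists below 0 in all 3, while the medians of ribosomal protein, oxidative phosphorylation and class I presentation genes lie nearer to 0, or above it, in KO.

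The same genes were measured in plasmacytoid dendritic cells (pDC), which make type I interferon and share some factors with each conventional subset. The pDC WT libraries had 7282, 6675 and 7729 CPM of Irf8 and 6323, 6568 and 8539 CPM of Cybb, so of the 3 WT populations cDC2 were lowest in Irf8 and pDC highest in Cybb. They had 1749.8, 1101 and 1704 CPM of Zeb2 and 456, 283 and 403 CPM of Cd300lf. Both levels were above those of either conventional subset. Sirpa had 119, 132 and 143 CPM there, Clec9a 116, 111 and 57.5 CPM and Notch4 1.56, 2.84 and 2.15 CPM. Of 22 tested pDC marker genes 4 were higher in cDC2 WT than in cDC1 WT (Mctp2, Lair1, Smim5 and Cox6a2) and Lag3 was lower. Siglech, on which pDC were sorted, had 232 and 177 CPM in cDC2 WT, against 154 and 83.2 CPM in cDC1 WT, and was not called.

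Markers of other cells were checked in each group. The macrophage list summed to 149 to 154 CPM in cDC2 WT, against 39.0 to 50.4 CPM in cDC1 WT, and 3 of 14 tested members (Apoe, C1qb and Adgre1) were higher in cDC2. Apoe had 58.3 and 53.2 CPM in cDC2 WT, against 19.5 and 10.6 CPM in cDC1 WT (log2 difference 1.90 ± 0.47 (SE), adjusted p = 0.0196), while Marco and Trem2 had no count in any of the 4 libraries. The monocyte list summed to 1159.9 to 1904 CPM in cDC2 WT, against 798 to 1102 CPM in cDC1 WT, and of 14 tested members 3 were higher in cDC2, Spn among them, and 1 lower, Treml4. The neutrophil list summed to 14.2 to 27.7 CPM in cDC2 WT, against 6.80 to 10.6 CPM in cDC1 WT, with Cxcr2 higher in cDC2 and Elane lower of 6 tested, and Ly6g and Retnlg had no count. Csf1r, Cx3cr1 and Adgre1 are genes that macrophages or monocytes share with cDC2, and the part of such cells in their difference was not tested.

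The thymocyte and T cell list ran the other way in its calls. Cd8b1, which encodes the beta chain of CD8 on T cells, had 2.43 and 8.74 CPM in cDC2 WT, against 24.2 and 26.2 CPM in cDC1 WT (log2 difference -2.12 ± 0.45 (SE), adjusted p = 0.0085), and Thy1 and Lck were lower in cDC2 as well, so 3 of 22 tested members were lower and 0 higher. The list summed to 343 to 459 CPM in cDC2 WT, against 416 to 504 CPM in cDC1 WT. Cd3e had 0 and 6.18 CPM in cDC2 WT, against 6.57 and 7.83 CPM in cDC1 WT, and Rag1, needed to rearrange receptor genes, had 0.243 and 10.1 CPM in cDC2 WT, against 25.1 and 18.7 CPM in cDC1 WT. These values stand beside that of Cd8a, which thymocytes also carry, and the part of thymocytes in the Cd8a difference was not tested. Of the B cell list 1 of 6 tested, Fcrla, was lower, while Pax5 had no count. The NK cell list summed to 298 to 319 CPM in cDC2 WT, against 117 to 155 CPM in cDC1 WT, and 1 of 11, Klrd1, was higher, while Ncr1 had 0 and 0 CPM in cDC2 WT, against 0.938 and 0.182 CPM in cDC1 WT. Among melanoma genes Pmel, Tyr and Dct had no count in any of the 4 libraries. Lost with 1 library left out were those of Apoe, Thy1, Lck, Elane, Cox6a2 and Lag3 without cDC2 WT 1 (adjusted p 0.0527 to 0.131), those of C1qb, Adgre1, Lck, Elane, Smim5 and Lag3 without cDC2 WT 2 (adjusted p 0.052 to 0.181), those of Apoe, C1qb, Adgre1, Treml4, Thy1, Lck, Elane, Smim5 and Lag3 without cDC1 WT 1 (adjusted p 0.0521 to 0.178), and those of Apoe, C1qb, Adgre1, Treml4, Lck, Elane, Lair1, Cox6a2 and Lag3 without cDC1 WT 2 (adjusted p 0.0574 to 0.268).

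Genes that respond to tissue dissociation, a sign of handling, had 1 of 24 tested members called, Ier5, lower in cDC2, and a median of -0.12. Calcium and G protein signalling genes had 1 of 24 higher, Rgs12, and 3 lower, Rgs10, Rgs2 and Cacna1e. The last is a voltage-gated calcium channel, with 54.6 and 24.6 CPM in cDC2 WT, against 83.0 and 118 CPM in cDC1 WT (log2 difference -1.35 ± 0.41 (SE), adjusted p = 0.0458). In the SIRP and SIGLEC families 3 of 6 tested receptors were higher, Sirpa, Siglece and Sirpb1a, and Siglece had 3.64 and 17.5 CPM in cDC2 WT, against 0 and 0.182 CPM in cDC1 WT (log2 difference 6.49 ± 1.46 (SE), adjusted p = 0.0161). The matrix protease Mmp12 was higher, 1 of 7 tested genes of its family, with 8.74 and 42.8 CPM in cDC2 WT, against 0.704 and 0.910 CPM in cDC1 WT (log2 difference 4.96 ± 1.16 (SE), adjusted p = 0.0163). In the IFI200 family Mndal was higher beside Ifi206, 2 of 9 tested. The list of thymic epithelium and stroma summed to 134 to 299 CPM in cDC2 WT, against 37.1 to 49.7 CPM in cDC1 WT. Of its 5 tested members 2, Epcam and Pecam1, were higher. The erythroid and sex-linked lists had 0 calls among 3 and 4 tested genes. Left-out libraries ended calls as follows: those of Rgs10 and Rgs2 without cDC2 WT 1 (adjusted p 0.0694 to 0.0741), those of Rgs12, Rgs2, Cacna1e, Siglece, Sirpb1a and Mmp12 without cDC2 WT 2 (adjusted p 0.0881 to 0.265), those of Ier5, Rgs12, Rgs2, Cacna1e, Siglece, Sirpb1a, Mmp12, Mndal and Pecam1 without cDC1 WT 1 (adjusted p 0.054 to 0.227), and those of Rgs12, Rgs10, Rgs2, Cacna1e, Siglece, Sirpb1a, Mmp12 and Pecam1 without cDC1 WT 2 (adjusted p 0.0773 to 0.219).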

How the data were processed

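Per the labels' protocols, RNA of sorted thymic dendritic cells was reverse transcribed with oligo-dT primers that carry a barcode, and the pooled cDNA was made into strand-marked libraries and amplified by PCR. The deposited values were raw counts of reads per gene for 15 libraries in 6 groups, and no molecular identifiers are stated. STAR, HTSeq, DESeq2 and the mm10 genome are named in the submitters' processing notes. Their roles, versions and strand setting were not given in the sources used here. Priming at the poly(A) tail and fragment choice can favour some transcript lengths, and a library with fewer distinct molecules counts low genes less evenly, so both can bear on the measurements. The floor of 3 counts covers counting error only, while each SE comes from the quasi-likelihood fit and includes the spread between libraries.

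Genes were kept by edgeR's filterByExpr over the 6 groups (11746 of 22165, with 0.0538% of counts left out and 5860 genes without reads), scaled by TMM and tested with edgeR 4.0.16 in R 4.3.3 by the quasi-likelihood test with robust estimation, 1 mean per group over all 15 libraries, and Benjamini-Hochberg adjustment over all genes tested. WT cDC2 minus WT cDC1, KO cDC2 minus KO cDC1 and the difference of these 2 were tested. CPM were computed from the counts and the TMM-scaled library sizes. The SD of replicates is not given beside pairs of values, since both are printed. Counts were simulated for WT cDC2 minus WT cDC1 with 200 changed genes, all drawn from genes above the median level in these groups. Recovery was 5.97% at 2-fold, 86.6% at 4-fold and 97.0% at 8-fold, with 8 unchanged genes called. Differences near 2-fold were thus mostly beyond this design, and recovery among genes of lower level was not simulated. The replicates did not agree within sampling noise (chi-square per degree of freedom 50.2 in cDC2 WT and 27.9 in cDC1 WT).

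Named were, among genes past the threshold without overlap, the 15 smallest p and 15 largest differences in each direction (unnamed gene models passed over), up to 8 members of each list, and chosen lists of receptors, factors and markers whatever their value. The comparison, the lists and the alternatives were chosen with earlier results of these data known. The ribosomal protein, CD300, MS4A, CLEC4, IFI200, SIRP and SIGLEC and MMP families were added after the values were seen. Transcript length, GC content and positions came from the GENCODE M21 annotation (GRCm38). Of 22165 genes, 21822 had a position and 21745 a transcript. The 34 tested genes without a length took no offset. Where genes overlap on 1 strand, as Clec9a does with Clec1b and Cx3cr1 with Csrnp1, reads could belong to either. Alternatives were RLE scaling, DESeq2 1.42.0, limma 3.58.1 with voom, other filters, narrower fits, a fold threshold of 1.5, replicate blocks, offsets from splines of length and GC content, and leaving out each library. Same-numbered libraries of cDC2 WT and cDC1 WT did not deviate together (correlation -0.122), and the other groups were not checked for this.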

Additional observations from a re-analysis of the deposited data

Results flagged for a closer look

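The difference between cDC2 and cDC1 differed between the genotypes for Mctp2 by the test of the interaction, with a log2 value of 5.28 ± 0.81 for the difference in WT minus that in KO (SE, adjusted p = 0.0472 by edgeR). The call was lost with voom (adjusted p = 0.303), with only the contrast's groups (0.184), without robust estimation (0.0597), against a fold of 1.5 (0.0714), with the replicate block (0.0832) or crossed numbers (0.0632), with the offsets (0.0984) or these and the block (0.179), and with 7 of the 9 libraries left out in turn (0.0623 to 0.412). It held with RLE scaling, DESeq2, no filter and a stricter filter (6.81e-06 to 0.042). Levels were 2.91 and 5.27 CPM in cDC2 WT, against 0.469 and 0.182 CPM in cDC1 WT, and 0.428, 0.878 and 0.290 CPM in cDC2 KO, against 1.83 and 1.75 CPM in cDC1 KO. Both cDC2 WT libraries lay above both cDC1 WT libraries, and all 3 cDC2 KO libraries lay below both cDC1 KO libraries. The gene is on the list of pDC markers, and the pDC WT libraries had 341, 286 and 459.8 CPM. Siglech, another pDC marker, had 232 and 177 CPM in cDC2 WT, against 154 and 83.2 CPM in cDC1 WT, and 153, 147 and 149.6 CPM in cDC2 KO, against 133 and 238 CPM in cDC1 KO. The part of pDC in the Mctp2 values was not tested. Groups of 2 and 3 libraries were too small for a test of single outlying libraries.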

How the results depend on the processing

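For WT cDC2 minus WT cDC1, 440 genes higher and 585 lower became 841 and 821 with DESeq2, 717 and 645 with no filter (16305 genes tested), 378 and 369 with voom, 165 and 144 with only the groups compared, 176 and 216 against a fold of 1.5, 757 and 984 at an adjusted p under 0.1, 292 and 400 with the length and GC offsets, and 245 and 302 with these offsets and the replicate block. With the replicate block alone they were 374 and 465, and with crossed numbers, an alternative chosen after seeing the data, 386 and 489. Leaving out 1 library gave 98 to 344 higher and 159 to 403 lower. With RLE scaling they were 548 and 500, so the larger count changed sides, with a stricter filter 558 and 559 (8823 genes tested), and without robust estimation 430 and 580. For KO cDC2 minus KO cDC1, 85 and 64 became 348 and 232 with only the KO groups, 73 and 46 with the replicate block, and 14 to 62 and 13 to 42 with 1 library left out. The genotype interaction, 1 higher and 0 lower, became 18 and 22 with DESeq2, 18 and 20 with no filter, 0 and 1 with voom, and 0 and 0 with only the contrast's groups, without robust estimation, with a fold of 1.5, with either block and with the offsets, with or without the block. Leaving out 1 library gave 0 to 1 higher and 0 to 1 lower. Apart from the left-out libraries, the cause of these changes was not tested where no reason is given.

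Of 151 called genes that the text names, none turned direction while called, under any of these alternatives, and the largest loss of calls among them was with cDC1 WT 1 or cDC1 WT 2 left out (85 and 86), against 69 with only the groups compared, 32 with the offsets, 22 with the replicate block and 8 with RLE scaling. The 2 libraries a group and their total of 3928164 to 6705249 counts limit what can be seen. Differences near 2-fold were mostly not detectable in simulated counts, where only genes above the median level were changed. Missing calls do not show equal levels.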
